A study of Danio rerio with 6 samples.

Results

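The genes described here are those of the zebrafish immunoglobulin heavy and light chain loci, taken from a table of 32105 genes as every row whose gene name begins with igh, igl or igic, ighmbp2 excepted. The rule found 55 genes. Of these, 53 are segments of immunoglobulin chains, and the other 2, igldcp and IGLON5, share only the first letters of the name and were kept out of the class summaries. The 53 segments comprised 3 heavy constant, 35 heavy variable, 5 heavy joining, 4 light constant and 6 light variable genes. Levels were compared between 3 libraries of fish homozygous for the IT325 mutation of ikzf1 (allele #t24980) and 3 libraries of their wild-type siblings. Per the labels, both groups had a background of mixed wild-type strains, and whole bodies were used 5 days after fertilization. Per the study's methods, 3 individual fish were used per genotype. IT325 is a chemically induced nonsense allele carried in every cell. Its product keeps the DNA-binding zinc fingers and lacks the C-terminal ones through which Ikaros proteins pair. The comparison asks which immunoglobulin transcripts are present when B cells develop with this form of Ikaros.

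An antibody consists of heavy and light chains, each with a variable part that meets antigen and a constant part. The constant part of the heavy chain sets the class. In B cell precursors the recombinase made by rag1 and rag2 joins 1 variable, diversity and joining segment of the heavy locus, and later 1 variable and joining segment of a light locus, before the chain is spliced to its constant region. The finished chains sit in the membrane with cd79a and cd79b as the B cell receptor. Fish make IgM, IgD and a class of their own called IgT or IgZ, and their light chain genes lie in several small clusters. Ikaros is a zinc finger factor of blood progenitors which, in the mouse, is needed for the formation of B cells.

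The libraries held 37390073 to 53279243 counts, and levels are given as CPM (each count scaled to the total of its column). No gene length was given, so levels are compared between groups. Where genes are ranked, or given a share of summed counts, the rank or share also depends on their lengths. The targeted gene, ikzf1 (ENSDARG00000013539), had 1073, 1730 and 1145 CPM in the 3 IT325 mutant libraries, against 282, 321 and 311 CPM in wild type, which separates the groups but does not show the allele. Several markers of a whole larva were absent or near 0: both matched lens crystallins, cryaa and crygm2d1, were at 0 in all 6 libraries, and the highest of 6 matched skeletal muscle genes, actn3b, averaged 0.501 CPM. The labelled tissue is therefore in doubt, and the labelled age was not checked by any value here. Levels are those of the RNA in these libraries, whatever tissue and age it came from. The 6 muscle genes together came to 1.17 to 1.64 CPM in mutants against 0.788 to 1.56 CPM in wild type. Some other tissue lists reached higher and varied more between libraries. In liver, 6 genes summed to 1.76 to 21.3 CPM in mutants against 5.11 to 21.1 CPM in wild type. For 4 neural genes the sums were 0.585 to 8.20 CPM in mutants against 1.04 to 17.3 CPM in wild type. Of the blood markers, 3 erythroid genes summed to 16926 to 23259 CPM in mutants against 4815 to 7780 CPM in wild type. The 2 matched macrophage genes summed to 256 to 328 CPM in mutants against 114 to 181 CPM in wild type. The 2 neutrophil genes summed to 21216 to 25441 CPM in mutants against 14800 to 16134 CPM in wild type, and 5 T cell genes to 21.4 to 32.8 CPM in mutants against 50.1 to 95.0 CPM in wild type. The part of these differences in the results below was not tested. Mutant replicate 1 stood apart from the other mutants in having the lowest level of every light constant gene, of cd79a and of pax5, so values are given for each library.

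Immunoglobulin transcripts were low in the mutants across both chains. All 53 segments together came to 83.2, 140 and 93.0 CPM in the mutant libraries, against 596, 539 and 644 CPM in wild type, or 105 ± 30.4 CPM against 593 ± 52.6 CPM (SD, n = 3 each). The mutant mean was 17.8% of the wild-type mean. The heavy constant genes summed to 83.1 ± 19.9 CPM in mutants against 362 ± 52.3 CPM in wild type, or 22.9%. The heavy variable segments summed to 4.30 ± 1.86 CPM in mutants against 25.6 ± 4.74 CPM in wild type, or 16.8%. The light chains kept a smaller share: light constant genes summed to 15.0 ± 8.46 CPM in mutants against 172 ± 3.05 CPM in wild type, or 8.72%, and light variable segments to 3.01 ± 1.68 CPM in mutants against 33.3 ± 3.25 CPM in wild type, or 9.03%. In bulk RNA, fewer B cells and less immunoglobulin RNA per B cell cannot be told apart.

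Of the 53 segments, 26 passed the filter on low counts, 17 had counts but did not pass, and 10 were at 0 in all 6 libraries. In edgeR's quasi-likelihood test, 21 of the 26 were lower in mutants at an adjusted p under 0.05 and 0 were higher, while over all 17828 genes tested 16.4% were lower and 17.5% higher. An unadjusted p under 0.05 was reached by 25 of the 26, all lower, but the share of all genes at that threshold was not computed. DESeq2 called 25 lower and 0 higher, beside 3042 lower and 3468 higher over all 17828 genes. The median log2 fold change of the 26 was -2.66, against -0.01 over all genes tested. In all 26 every mutant library lay below every wild-type library, which held for 31.1% of all genes tested. These counts are not support for a direction, since only 9 of the 26 reached the filter level of 0.240 CPM in all 3 mutant libraries and the other 17 passed it through their wild-type libraries. The 9 were ighm, ighd, ight, ighv9-1, ighv4-1, igic1s1, igl3c3, igl1c3 and igl3v5.

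**Figure D1:**
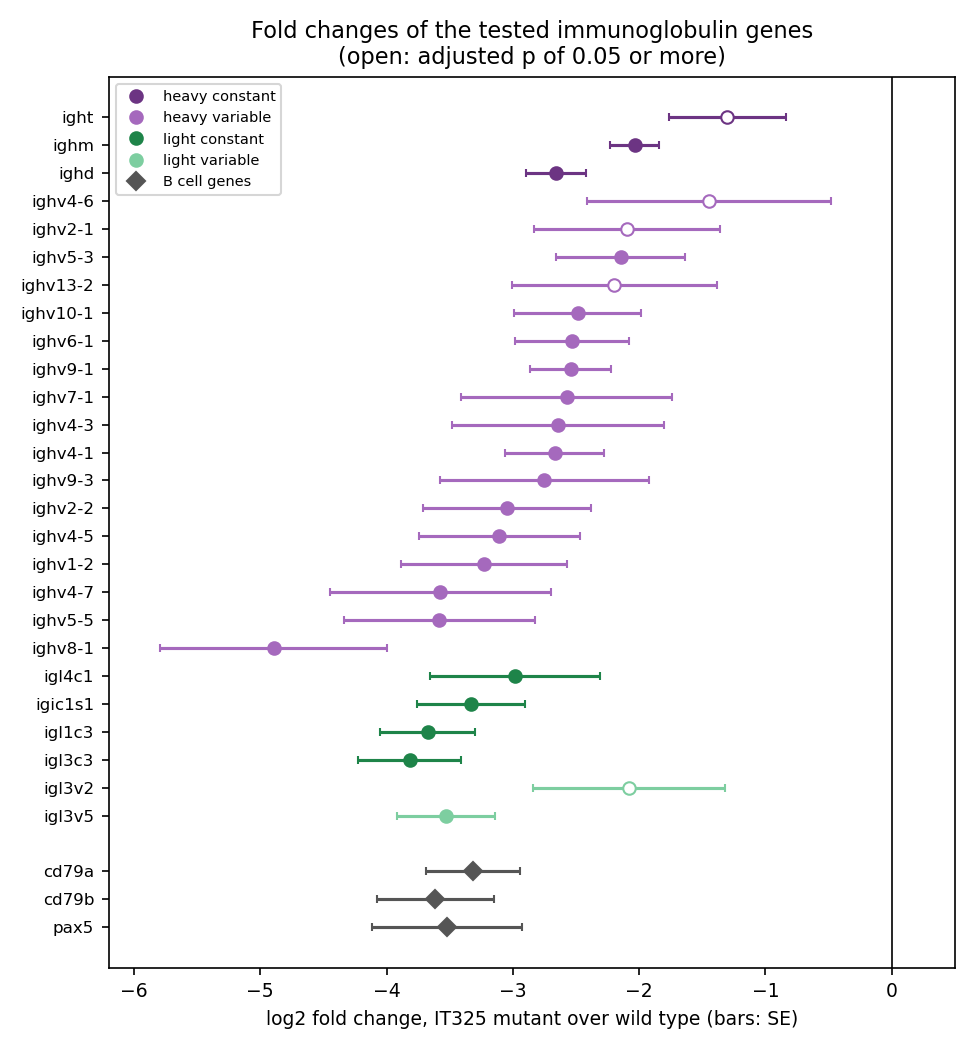
Log2 fold change (horizontal axis, IT325 mutant over wild type) of each of the 26 tested immunoglobulin genes, grouped by chain and segment. Bars are 1 SE, derived from the log2 fold change and the F statistic of the edgeR test. Filled symbols passed an adjusted p of 0.05 and open symbols did not, and diamonds show 3 B cell genes for comparison. All 26 points lie left of 0, from -1.30 for ight among the heavy constant genes to -4.89 for ighv8-1 among the heavy variable segments.

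Among the heavy constant genes, IgM and IgD transcripts fell and the change of IgT did not pass the threshold. The row named ighm (ENSDARG00000096355), the IgM heavy chain that the first B cells carry, had 70.1, 98.7 and 63.5 CPM in mutants, against 342, 286 and 393 CPM in wild type. All mutant libraries were below all wild-type libraries, and the fitted level was 4.10-fold lower (log2 fold change -2.03, SE 0.19, adjusted p = 2.86e-04). The study's own names call this identifier ighv1-4, so its counts may not come from the constant region alone. On average it made up 77.4 of the 83.1 CPM of heavy constant genes in mutants, and 340 of 362 CPM in wild type. The heavy constant sum, and every ratio that uses ighm or heavy chain counts, carries the same limit. A separate row named ighv1-4 was at 0 in every library.

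IgD is made from the same rearranged heavy chain gene as IgM, by splicing a long transcript past the IgM exons to those of ighd (ENSDARG00000096248). This gene had 1.55, 2.28 and 1.20 CPM in mutants, against 12.6, 11.2 and 10.4 CPM in wild type. The difference was several times the spread in either group, and the fitted level was 6.32-fold lower (log2 fold change -2.66, SE 0.24, adjusted p = 8.03e-05). Within a library, ighd had 2.21, 2.31 and 1.88 counts per 100 counts of ighm in mutants, against 3.67, 3.91 and 2.63 in wild type. The means were 2.13 ± 0.225 in mutants against 3.41 ± 0.680 in wild type (SD, n = 3 each), without overlap. The exact two-sided permutation test gave p = 0.1, the smallest that 3 libraries against 3 allow, and an adjusted p of 0.15 over the 9 ratios computed.

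The IgT heavy chain gene ight (ENSDARG00000096280) is known for antibodies of the gut and gills in fish. It had 1.32, 5.01 and 5.51 CPM in mutants, against 8.85, 12.1 and 9.80 CPM in wild type. The groups did not overlap, but mutant replicate 1 was well below the other mutants, and the fitted log2 fold change of -1.30 (SE 0.46) had an adjusted p of 0.0720. Without that library the log2 fold change was -0.89 and the adjusted p 0.0081, and DESeq2 on all 6 libraries gave -1.29 with an adjusted p of 0.00433. Per 100 counts of ighm there were 1.89, 5.08 and 8.67 counts of ight in mutants, against 2.59, 4.24 and 2.49 in wild type. These ratios overlapped (exact two-sided permutation p = 0.6), with mutant replicate 1 lowest of all and mutant replicate 3 highest, so a different change of ight from that of ighm was not detectable.

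**Figure D2:**
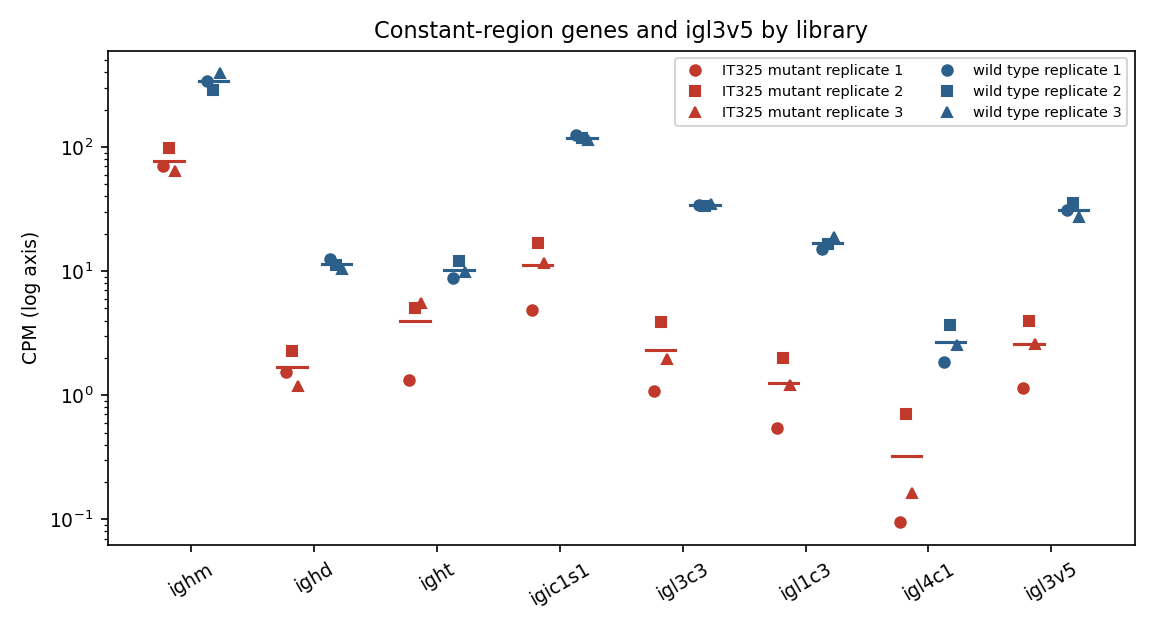
CPM on a log axis of the 7 constant genes and of the light variable segment igl3v5 in each library, mutants left (red) of wild type (blue) for each gene, with the replicate number by symbol and the mean as a bar. No mutant library reaches the wild-type range for any of the 8 genes. The gap is narrowest for ight, at 5.51 CPM in the highest mutant library and 8.85 CPM in the lowest wild-type library.

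Light chain constant genes were all lower in mutants, each past the threshold, beside 16.4% lower over all genes tested. Their log2 fold changes ran from -3.82 to -2.98, beside -2.03 for ighm and -2.66 for ighd. One of them, igl4c1, did not reach the filter level in every mutant library. The gene igic1s1 (ENSDARG00000093272), constant region of an iota light chain, had 4.87, 16.9 and 11.6 CPM in mutants, against 124, 118 and 113 CPM in wild type. Wild-type libraries lay close together and the mutants spread more widely, at a fitted level 10.1-fold lower (log2 fold change -3.33, SE 0.43, adjusted p = 0.00297). The light constant gene igl3c3 (ENSDARG00000071461) had 1.08, 3.90 and 1.95 CPM in mutants, against 34.3, 33.5 and 34.9 CPM in wild type. It had the lowest log2 fold change of the constant genes (-3.82, SE 0.41, adjusted p = 8.48e-04), with -4.41 without mutant replicate 2 and -3.47 without mutant replicate 1.

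The gene igl1c3 (ENSDARG00000078975), of another light chain cluster, had 0.548, 1.99 and 1.22 CPM in mutants, against 15.0, 16.5 and 18.9 CPM in wild type. Its fitted level was 12.8-fold lower (log2 fold change -3.67, SE 0.38, adjusted p = 4.15e-04). The gene igl4c1 (ENSDARG00000097677) had far fewer counts: 5, 29 and 7 in mutants, against 69, 149 and 135 in wild type. It was 7.91-fold lower (log2 fold change -2.98, SE 0.67, adjusted p = 0.0113). On the log2 scale the change was -4.26 without mutant replicate 2, the highest of the mutants, and -2.53 without mutant replicate 1. In all 4 light constant genes the order of the mutant libraries was the same, with replicate 2 highest and replicate 1 lowest.

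Of the 6 light variable segments, which encode the antigen-binding part of the light chain, 2 passed the filter. Igl3v5 (ENSDARG00000079987) had 1.15, 3.98 and 2.58 CPM in mutants, against 30.8, 35.6 and 27.2 CPM in wild type, a fitted level 11.5-fold lower (log2 fold change -3.53, SE 0.39, adjusted p = 9.31e-04). The other, igl3v2, had 3, 13 and 25 counts in mutants against 37, 30 and 133 in wild type, and its log2 fold change of -2.08 (SE 0.76) missed the threshold (adjusted p = 0.0681). It passed in DESeq2 (adjusted p = 0.0207) and without mutant replicate 3 (log2 fold change -2.83, adjusted p = 0.0440), while without wild-type replicate 3, its highest library, the log2 fold change was -1.37. Below the filter, igl3v3 had 2, 5 and 0 counts in mutants against 41, 6 and 20 in wild type. The 3 segments of the igl4v series were nearly silent: igl4v10, igl4v8 and igl4v9 had 4, 3 and 1 counts over the mutant libraries, against 11, 8 and 0 over the wild-type libraries. The single count of igl4v9 was in mutant replicate 3.

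Heavy variable segments supply the antigen-binding part of the heavy chain, and the 35 in the table are named by family and number. Of these, 17 passed the filter, a further 10 had counts without passing and 8 were at 0. Of the 17, 14 were lower in mutants past the threshold and 0 higher, with log2 fold changes from -4.89 to -1.45. Over all genes tested 16.4% were lower and 17.5% higher. Only 2 of the 17 reached the filter level in all mutant libraries, so these counts are not support for a direction. Since reads that fit several genes are left out of such counts by default, segments of near-identical sequence may be undercounted, and values of single segments are uncertain to that extent.

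The segment with the most counts in each wild-type library, ighv9-1 (ENSDARG00000096430), had 34, 34 and 17 counts in mutants against 123, 155 and 249 in wild type (log2 fold change -2.54, SE 0.32, adjusted p = 5.19e-04). Ighv4-1 (ENSDARG00000096259) had 36, 20 and 12 counts in mutants against 102, 121 and 235 in wild type (log2 fold change -2.67, SE 0.39, adjusted p = 0.00111). These were the only heavy variable segments to reach the filter level in all 3 mutant libraries. Ighv5-3 had 10, 19 and 35 counts in mutants against 97, 59 and 150 in wild type (log2 fold change -2.15, adjusted p = 0.0120). Ighv10-1 had 6, 15 and 18 counts in mutants against 64, 52 and 124 in wild type (log2 fold change -2.49, adjusted p = 0.0057). Ighv6-1 had 7, 11 and 19 counts in mutants against 58, 75 and 95 in wild type (log2 fold change -2.53, adjusted p = 0.0030). The mutant libraries were thus not ordered alike: replicate 1 was lowest for the last 3 segments and highest for ighv4-1.

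In 3 segments a single mutant library came near the wild-type range and the change did not pass. Ighv4-6 had 1, 63 and 22 counts in mutants against 78, 67 and 115 in wild type, so that mutant replicate 2 reached 1.55 CPM beside 1.66 CPM in the lowest wild-type library (log2 fold change -1.45, SE 0.96, adjusted p = 0.294). Its log2 fold change was -2.84 without mutant replicate 2 and -0.85 without mutant replicate 1, and no alternative moved it past the threshold. Ighv2-1 had 4, 32 and 9 counts in mutants against 60, 39 and 118 in wild type (log2 fold change -2.10, adjusted p = 0.0602). Again mutant replicate 2 was the high library, and without it the values were -3.39 and 0.0076, while without mutant replicate 1 the log2 fold change was -1.60. Ighv13-2 had 2, 2 and 18 counts in mutants against 38, 24 and 45 in wild type (log2 fold change -2.20, adjusted p = 0.0674), and without mutant replicate 3, the high one here, -4.04 and 0.0051. Without mutant replicate 1 its log2 fold change was -1.71. DESeq2 called ighv2-1 and ighv13-2, with adjusted p-values of 0.0144 and 0.0359, and not ighv4-6.

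**Figure D3:**
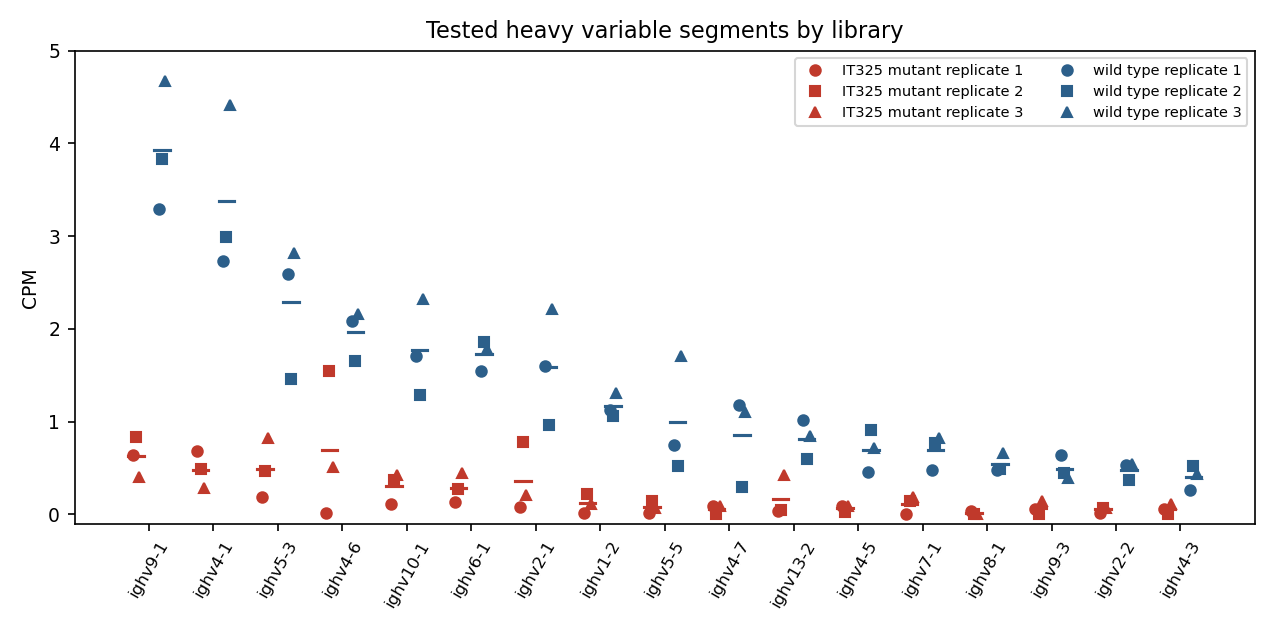
CPM (linear axis) of the 17 heavy variable segments that passed the filter, in order of the wild-type mean, with mutants left (red) of wild type (blue), the replicate number by symbol and the mean as a bar. Mutant points lie under 1 CPM except mutant replicate 2 for ighv4-6, at 1.55 CPM, while wild-type means run from 0.406 CPM for ighv4-3 to 3.93 CPM for ighv9-1.

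The other called segments had at most 9 counts in any mutant library. Ighv1-2 had 1, 9 and 5 counts in mutants against 42, 43 and 70 in wild type (log2 fold change -3.23). Ighv5-5 had 1, 6 and 3 counts in mutants against 28, 21 and 91 in wild type (-3.58). Ighv4-7 had 5, 0 and 4 counts in mutants against 44, 12 and 59 in wild type (-3.57). No mutant library of these 3 reached the lowest wild-type library, the closest being ighv4-7 with 5 counts beside 12. Their adjusted p-values in edgeR were 0.0059, 0.0071 and 0.0139. Without mutant replicate 2, the log2 fold changes of ighv1-2 and ighv5-5 were -4.01 and -4.35. Without mutant replicate 1 that of ighv1-2 was -2.69, and without wild-type replicate 3 that of ighv5-5 was -2.93. Ighv4-5 had 5, 1 and 4 counts in mutants against 17, 37 and 38 in wild type (log2 fold change -3.11, adjusted p = 0.0060). Ighv2-2 had 1, 3 and 3 counts in mutants against 20, 15 and 29 in wild type (log2 fold change -3.05, adjusted p = 0.0081).

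Among the 26 tested segments the largest fitted change was that of ighv8-1, with 2, 0 and 0 counts in mutants against 18, 20 and 35 in wild type (log2 fold change -4.89, SE 0.90, adjusted p = 0.0035). Both remaining mutant libraries are at 0 when mutant replicate 1 is left out, and the fitted value is then -7.53, which depends on the prior count. The call was weakest in 3 segments. Ighv7-1 had 0, 6 and 8 counts in mutants against 18, 31 and 44 in wild type (log2 fold change -2.57, adjusted p = 0.0434), ighv9-3 had 3, 0 and 6 counts in mutants against 24, 18 and 21 in wild type (-2.75, 0.0329), and ighv4-3 had 3, 0 and 5 counts in mutants against 10, 21 and 23 in wild type (-2.64, 0.0395). Ighv7-1 lost its call in each fit that left out a library, with an adjusted p of 0.0518 to 0.0959 and a log2 fold change of -3.17 without mutant replicate 3 and -1.95 without mutant replicate 1. Ighv9-3 lost it without mutant replicate 1 or 2 or wild-type replicate 1 or 2 (adjusted p 0.0645 to 0.104). Ighv4-3 lost it without any 1 library except mutant replicate 3 (adjusted p 0.0644 to 0.115). Without that library the log2 fold changes of ighv9-3 and ighv4-3 were -3.74 and -3.46, and without mutant replicate 2 they were -2.21 and -2.11.

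Below the filter, counts were few in both groups. Ighv4-2 had 0, 1 and 1 counts in mutants against 13, 9 and 27 in wild type, ighv1-3 had 0, 5 and 0 counts in mutants against 8, 14 and 26 in wild type, and ighv3-2 had 0, 3 and 4 counts in mutants against 12, 9 and 19 in wild type. Ighv11-1 had no count in mutants against 3, 9 and 10 in wild type. The pooled wild-type level was 7.63 times a floor of 3 counts over the mutant group. This figure carries no error, and the 3 counts of wild-type replicate 1 equal the floor of a single library. Ighv2-3 had no count in mutants against 0, 1 and 5 in wild type, so that it overlapped and rested on wild-type replicate 3. Over the 17 segments with counts that did not pass the filter, the totals over the 6 libraries ran from 1 to 74. The share of lower genes among all those below the filter was not computed, so the direction of these segments is not counted here.

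The heavy joining segments, short stretches that link the variable part to the constant part, gave almost no counts of their own. Ighj2-5 had 3, 1 and 4 counts in mutants against 8, 6 and 0 in wild type, ighj2-3 had 1, 0 and 0 counts in mutants against 1, 2 and 7 in wild type, and ighj1-2 had 0 counts in mutants and a single one in wild type. The 5 together came to 4, 1 and 4 counts in mutants against 9, 8 and 8 in wild type, too few for a test.

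Ratios of counts within a library, which need no scaling, compare the changes of different segments directly. Summed light chain counts per 100 heavy chain counts were 10.4, 25.1 and 24.1 in mutants, against 53.8, 62.8 and 44.9 in wild type. The groups did not overlap, and the mean ratio in mutants was 0.369 of that in wild type, or 0.457 without mutant replicate 1. For single genes, igic1s1 had 6.95, 17.1 and 18.2 counts per 100 counts of ighm in mutants, against 36.3, 41.2 and 28.8 in wild type. Likewise igl3c3 had 1.54, 3.96 and 3.06 counts per 100 of ighm in mutants, against 10.02, 11.7 and 8.86 in wild type. In each case the mutant libraries were all below the wild-type libraries, as they also were for igl1c3 per ighm (1.57 ± 0.686 in mutants against 4.98 ± 0.713 in wild type), while igl4c1 per ighm overlapped (0.372 ± 0.309 in mutants against 0.825 ± 0.407 in wild type; SD, n = 3 each). The exact two-sided permutation p was 0.1 for the 3 ratios without overlap and 0.3 for igl4c1, with adjusted values of 0.15 and 0.338. These ratios were chosen with the levels known, and 0.1 is the smallest p possible.

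The ratio of variable to constant counts overlapped between the groups for the light chains. Light variable counts per 100 light constant counts were 18.9, 19.5 and 21.4 in mutants, against 18.9, 21.4 and 17.8 in wild type, with a mean ratio in mutants that was 1.03 of that in wild type. For the heavy chain the figures were 3.13, 5.63 and 6.61 in mutants, against 6.55, 7.15 and 7.50 in wild type. Mutant replicate 1 was the low library here and mutant replicate 3 lay within the wild-type range. The mean ratio was 0.725 of that in wild type, and 0.866 without mutant replicate 1. Most of the heavy constant counts are those of the row named ighm, which may not hold the constant region alone.

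Cd79a, the signalling partner of every membrane immunoglobulin, gives a reading of B cell transcripts that does not use the immunoglobulin loci. It had 1.74, 5.74 and 4.13 CPM in mutants, against 41.7, 40.0 and 40.1 CPM in wild type (log2 fold change -3.32, SE 0.37, adjusted p = 0.00106 in edgeR). Igic1s1 overlapped between the groups when set against cd79a, at 280, 294 and 280 counts per 100 of cd79a in mutants, against 298, 294 and 282 in wild type (285 ± 8.18 in mutants against 291 ± 8.25 in wild type; SD over 3 libraries each; exact two-sided permutation p = 0.3). Ighm gave another picture, with 4036, 1718 and 1540 counts per 100 of cd79a in mutants, against 819, 714 and 980 in wild type. Ight had 76.1, 87.2 and 134 counts per 100 of cd79a in mutants, against 21.2, 30.3 and 24.4 in wild type. Both of these were higher in every mutant library than in any wild-type library, with mutant replicate 1 the most extreme for ighm (exact two-sided permutation p = 0.1 and adjusted p = 0.15 for each).

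**Figure D4:**
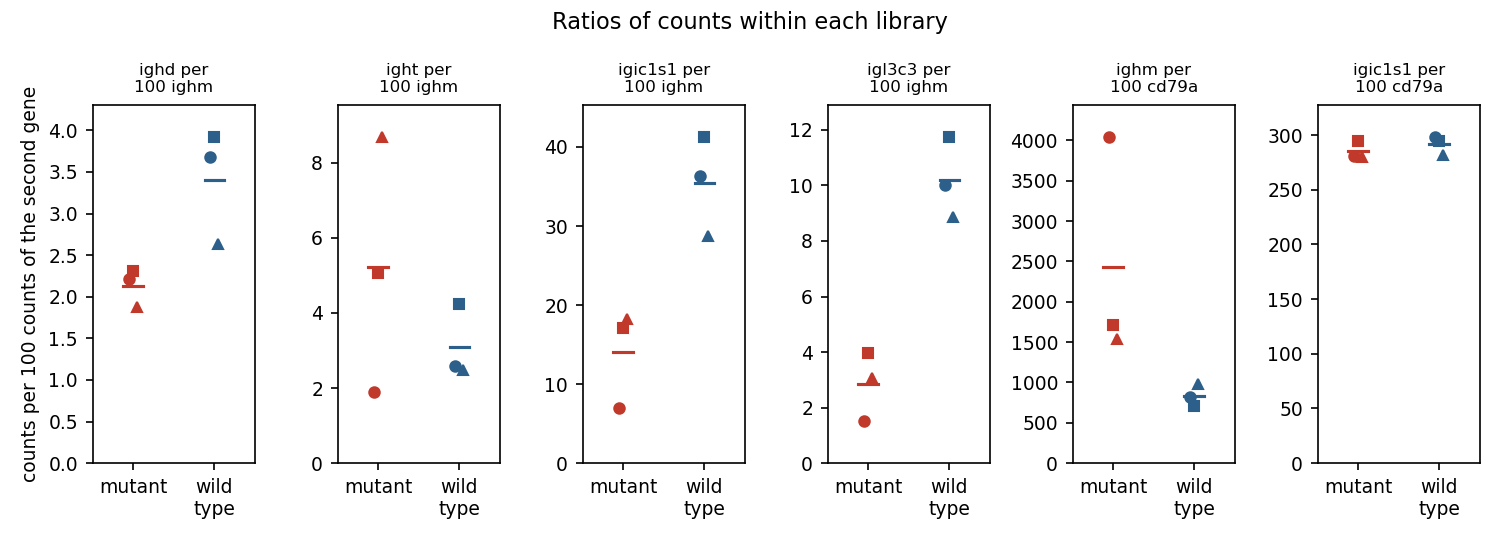
Counts of one gene per 100 counts of another within each library, for 6 of the 9 ratios, with mutants left (red) of wild type (blue), the replicate number by symbol and the mean as a bar; each panel has its own linear axis from 0. The ratios of ighd, igic1s1 and igl3c3 to ighm are lower in all mutants, ighm to cd79a is higher in all mutants with replicate 1 at 4036, and the ratio of igic1s1 to cd79a lies between 280 and 298 in all 6 libraries.

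The mix of heavy variable segments describes how the counts are spread over segments. It does not give the number of rearranged genes, since several of them can use the same segment. The 35 segments together had 121, 243 and 198 counts in mutants, against 891, 893 and 1653 in wild type. At least 1 count was seen for 16, 20 and 20 segments in mutants, and for 26, 27 and 26 in wild type. Since fewer counts show fewer segments, the expected number was also computed for 121 counts drawn from each library, which gave 16.0, 17.7 and 19.0 in mutants against 20.8, 22.7 and 21.1 in wild type. The gap narrowed, and the mutant libraries stayed below wild type at an equal number of counts, which does not equalise the number of transcripts or cells behind them.

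The counts as obtained were also spread less evenly in mutants. The effective number of segments, the number of equally used segments that would give the same chance of drawing a pair alike, was 5.36, 7.86 and 11.3 in mutants, against 13.1, 12.4 and 12.5 in wild type, with mutant replicate 3 close to the wild-type libraries. Unlike the number of segments seen, the effective number was not computed at an equal number of counts, and few counts lower it. The leading segment was the same in all wild-type libraries, ighv9-1, with 13.8%, 17.4% and 15.1% of the heavy variable counts. Each mutant library had a different one: ighv4-1 in replicate 1 with 29.8% (exact 95% binomial interval 21.8% to 38.7%), ighv4-6 in replicate 2 with 25.9% (20.5% to 31.9%) and ighv5-3 in replicate 3 with 17.7% (12.6% to 23.7%). The lead in replicate 1 was narrow, with 36 counts of ighv4-1 beside 34 of ighv9-1. The intervals treat reads as independent, which reads of 1 transcript are not, so they understate the error. Each is also for the segment picked as the largest of its library, which raises its share, more so at few counts. In mutant replicate 1, ighv9-1 and ighv4-1 together took 57.9% of the counts, while they took 22.2% and 14.6% in the other mutants and 25.3%, 30.9% and 29.3% in wild type.

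**Figure D5:**
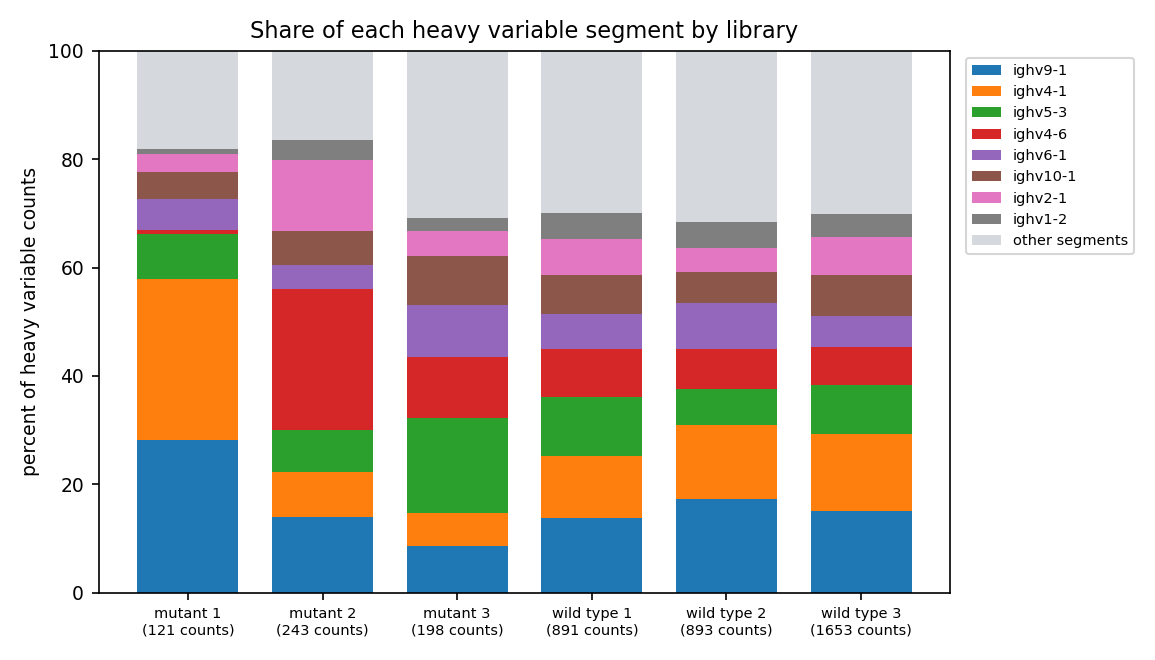
Share of the heavy variable counts (vertical axis, percent) taken by each of 8 segments and by all others, for the 3 mutant libraries and then the 3 wild-type libraries, with the number of counts under each bar. The 3 wild-type bars look alike, with ighv9-1 at 13.8% to 17.4%, whereas the mutant bars are led by ighv4-1, ighv4-6 and ighv5-3.

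By family, shares of the heavy variable counts varied more between mutant than between wild-type libraries in the 3 families described first. Family 4, with 8 segments, took 41.3%, 37.0% and 24.7% of the counts in mutants, against 30.1%, 33.0% and 30.7% in wild type. Family 9 took 30.6%, 14.0% and 11.6% in mutants, against 16.5%, 19.4% and 16.3% in wild type. Family 5 took 9.09%, 12.3% and 19.2% in mutants, against 14.8%, 9.74% and 14.8% in wild type. In these 3 families mutant values lay on both sides of the wild-type range. The mutant shares rest on 121, 243 and 198 counts, against 891, 893 and 1653 in wild type. Counting error alone therefore spreads the mutant shares more, and its part in the wider spread was not tested. Family 8 had no count in 2 of the mutant libraries and 1.65% in replicate 1, against 2.02% to 2.24% in wild type, a difference that rests on 2 counts in mutants. Family 11 had no count in mutants and 0.337%, 1.008% and 0.605% in wild type, all from ighv11-1. Family 1 took 0.826%, 5.76% and 2.53% in mutants, against 5.61%, 6.38% and 5.81% in wild type, with mutant replicate 2 inside the wild-type range and the other mutants below it. These shares were not tested.

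Of 39 matched B lineage genes in 4 lists, 37 were tested, with 22 lower and 4 higher, beside 16.4% lower and 17.5% higher over all genes tested. Of 14 B cell receptor and signalling genes, 13 were lower, among them cd79b (7.61 ± 4.27 CPM in mutants against 98.2 ± 10.2 CPM in wild type, log2 fold change -3.61) and the tetraspanin cd37 (10.89 ± 5.86 CPM in mutants against 172 ± 17.0 CPM in wild type, -3.90). The median log2 fold change of the 14 was -0.99, and the smallest falls were those of lyn (-0.39), btk (-0.41) and cd74b (-0.47). Syk and blnk, which act directly under the receptor and are also used in other blood cells, had log2 fold changes of -1.37 and -1.86. The exception was cd22, in mammals an inhibitory receptor of B cells, with 33.5 ± 6.03 CPM in mutants against 7.94 ± 3.22 CPM in wild type (log2 fold change 2.17, adjusted p = 0.00129).

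Among 8 matched B lineage factors 5 were lower, including pax5, which commits cells to the B lineage, at 4.90 ± 3.24 CPM in mutants against 58.9 ± 6.88 CPM in wild type (log2 fold change -3.52, adjusted p = 0.0086). Tcf3b, an E protein used in many cell types, was higher by a small step (log2 fold change 0.22, adjusted p = 0.0432), a call lost in 9 of 13 alternatives, among them each fit without a mutant library and those without wild-type replicate 1 or 2 (adjusted p 0.0558 to 0.138). Of 10 tested recombination genes 4 were lower. Those that act in lymphocytes alone, rag1, rag2 and dntt, which adds bases at the joints, had log2 fold changes of -3.01, -3.15 and -2.45, beside -0.42 for prkdc, a kinase of general DNA repair. Without mutant replicate 2 that of rag1 was -3.62, and without mutant replicate 1 it was -2.68. Nhej1, a general end-joining factor, was higher at 0.41, a call lost in 6 of 13 alternatives: without scaling factors (0.30, adjusted p = 0.0917), without each single mutant library and without wild-type replicate 1 or 2 (0.35 to 0.45, adjusted p 0.0523 to 0.104). Rag1 and rag2 also serve T cells. Of 6 listed T cell markers 5 were matched, and all 5 were lower, beside 16.4% lower over all genes tested. The part of T cells in the change of rag1 and rag2 was not tested.

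Antibody secretion was represented by 6 of 12 listed genes. Of 5 tested, 0 were lower past the threshold and ell2, an elongation factor that in mouse plasma cells favours the secreted form of the heavy chain, was higher (79.1 ± 4.11 CPM in mutants against 48.8 ± 4.25 CPM in wild type, log2 fold change 0.80, adjusted p = 4.08e-04). At an unadjusted p under 0.05 the list also had 0 lower, as it did in DESeq2, which called 2 of its genes higher. With 5 genes tested and 16.4% of all genes lower and 17.5% higher, these counts are no result about the list. Xbp1, a secretory cell factor that many other tissues use, had 1706 ± 88.0 CPM in mutants against 1591 ± 142 CPM in wild type (SD, n = 3 each), with a log2 fold change of 0.20 and an adjusted p of 0.119. Prdm1b, a factor of plasma cells and of other tissues, was at 0.829 ± 0.232 CPM in mutants against 0.164 ± 0.219 CPM in wild type (log2 fold change 2.32, adjusted p = 0.0855).

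The 2 genes that fit the rule by name only behaved differently. Igldcp, named for an immunoglobulin-like domain, had 614, 183 and 210 counts in mutants against 246, 381 and 278 in wild type, with overlapping groups (log2 fold change 0.12, adjusted p = 0.853). IGLON5, an adhesion molecule of neurons in mammals, had 2, 6 and 5 counts in mutants and none in wild type, under the filter.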

How the data were processed

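RNA of 6 samples had undergone poly-A selection and stranded library preparation. Paired reads were mapped by the authors with STAR 2.5.2b-1 to the Ensembl annotation and assigned to genes with featureCounts 1.6.0.1 at default settings, which leave out reads that fit several genes and do not use strand. The deposited values are raw counts with no scaling. The column totals, 37390073 to 53279243, exceed the depth that the study states, and the reason was not given in the sources used here. A floor of 3 counts equals 0.0563 to 0.0802 CPM per library. The study mentions individual fish and biological replicas, and nothing further says how far the replicates are independent. The p-values therefore measure the spread between these libraries. The labels give no batch or date.

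Genes were named from a list that gave a symbol for 26269 of 32105 identifiers, and those of gene lists were matched by symbol alone. Counts were fitted in edgeR 4.0.16 under R 4.3.3: filterByExpr with a minimum count of 10, TMM scaling, a robust quasi-likelihood test without covariates, and Benjamini-Hochberg adjustment over 17828 genes, at a threshold of 0.05 and two-sided. Fold changes are mutant over wild type. The edgeR test gives no SE, so each SE is the absolute log2 fold change divided by the square root of the F statistic. For ratios of counts, libraries were permuted exactly, two-sided. The steps were tested on simulated data. Alternatives were other scalings, other filters, DESeq2 1.42.0, a test against a 1.5-fold change, an adjusted p under 0.01, a replicate block and leaving out each library.

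All members past the filter are named, with values per library where a group averaged at least 10 counts. Genes of the other lists are named if past the threshold, and those that were not, xbp1 and prdm1b, were chosen after their values were seen. The members, lists and ratios were chosen with earlier results of these data known. No sequences or coordinates are given, because the reference annotation used for names, of the assembly GRCz12tu, is of another build. Some genes of the lists are counted but not reported here by name.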

Additional observations from a re-analysis of the deposited data

How the results depend on the processing

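The number of immunoglobulin genes called lower, 21, was 21 under each of 3 other scalings, 23 with no filter and 22 with a filter on the mean count. It was 25 in DESeq2, 18 in the test against a 1.5-fold change, 15 at an adjusted p under 0.01, and 18 to 23 when a library was left out. Over all 17828 genes tested, 2917 were called lower, 2836 to 3742 under the other scalings, 3042 in DESeq2 and 915 against a 1.5-fold change. With no filter 2777 of 25909 genes were called lower, and 2893 of 17879 with the filter on the mean count. When a library was left out, 2178 to 2670 of 18252 to 18477 genes were called lower. The number over all genes at an adjusted p under 0.01 was not computed. Libraries with the same replicate number varied little together: the correlations of deviations from the group means were 0.0559, 0.122 and 0.0939. The labels do not say whether these libraries were paired. With the replicate block 21 immunoglobulin genes were called lower, 19 of them among the 21 of the main fit. Over all genes 5370 were called, 2523 of them lower, against 6039 in the main fit. It added ight (adjusted p = 0.0353) and igl3v2 (0.0348) and lost ighv9-3 (0.0588) and ighv4-3 (0.0784). No alternative called an immunoglobulin gene higher. The median log2 fold change stayed between -2.78 and -2.65, and between -3.08 and -2.63 when a library was left out. Over all genes the balance of calls moved with scaling, at 3122 higher and 2917 lower with TMM and 2428 higher and 3742 lower without scaling factors, where the median gene shifted to -0.11. The number of B lineage genes called higher, 4, was 5 in DESeq2, 2 without scaling factors, 2 at an adjusted p under 0.01, 1 against a 1.5-fold change, and 2 to 6 when a library was left out. It was 2 without each single mutant library and without wild-type replicate 1 or 2, and 6 without wild-type replicate 3, and the cause was not tested. When a library was left out, the ratio of mutant to wild type ranged from 0.563 to 0.677 for ighd per ighm, 0.340 to 0.499 for igic1s1 per ighm, 1.12 to 2.21 for ight per ighm, 0.321 to 0.457 for light per heavy chain, 0.620 to 0.866 for heavy variable per constant, and 0.990 to 1.09 for light variable per constant. The runs for igic1s1 and ight per ighm were added after seeing the data. Low counts kept 18 of 35 heavy variable, 4 of 6 light variable and 5 of 5 heavy joining segments out of the test.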
